A study of Macaca mulatta with 2 samples.

Results

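Voltage-gated calcium channels open when the neuronal membrane depolarizes and admit calcium, which triggers transmitter release, shapes dendritic firing and signals to the nucleus. Each channel is built on a pore-forming alpha-1 subunit, and the gene of that subunit sets the type of current. High-voltage-activated channels carry the P/Q-, N-, R- and L-type currents and assemble with alpha2delta and beta subunits, whereas low-voltage-activated T-type channels open near rest and support burst firing. The 8 genes described here, CACNA1A, CACNA1B, CACNA1C, CACNA1D, CACNA1E, CACNA1G, CACNA1H and CACNA1I, are the pore genes of the brain. They were selected by symbol and no rule used their values, but earlier results of these data were known when they were chosen. All 8 were present among the 33618 genes in a table of read counts.

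The RNA came from the prefrontal cortex of infant rhesus macaques (Macaca mulatta), and the study asked how repeated sevoflurane, an inhaled anesthetic used in children, affects the developing primate brain. The control group was represented by 1 library and the sevoflurane group by 1 library, each from an animal labelled postnatal day 28. By the labels, sevoflurane was given at 2.5 to 3% for 4 h at about postnatal days 7, 14 and 28, while the study's methods give later days for the second and the third exposure and place tissue collection immediately after the last. No genotype, strain or other agent is labelled, and what the control animal received is not given in the sources used here. The study's methods also describe induction at a higher concentration, pure oxygen and intubation, which cannot be told apart from sevoflurane here. The study describes 3 animals per group, of which 1 per group was analysed here. Thus there is no replicate check and no p-value, and every difference below compares 2 libraries and not 2 conditions.

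The control library held 16960880 reads and the sevoflurane library 9839105. TMM scaling in edgeR turned counts into CPM, counts made comparable between libraries of unequal depth. A gene was tested when 1 or both libraries reached 1 CPM, which left 18050 genes, all 8 members among them. The log2 ratio, with the control as its denominator and a prior count of 2, had a median of -0.0048 over them. Each ratio is given with an exact 95% Clopper-Pearson interval, which covers counting error only and not variation between animals. The tissue label was checked first. The cortical excitatory neuron genes SLC17A7 (16767 control and 9073 sevoflurane reads) and TBR1 (2347 and 2057) were abundant in both libraries, whereas the cerebellar genes GABRA6 (1 and 2 reads) and EN2 (0 reads in both) were near or at 0. Other genes on the same list of cerebellar, thalamic and striatal markers were present in both libraries, namely CBLN1 (325 and 37 reads), DRD1 (545 and 230) and PPP1R1B (644 and 899), and CBLN1 (log2 ratio -2.33) and PPP1R1B (1.24) differed between them. Y-linked genes set the libraries apart, since 7 of them summed to 3 control and 4308 sevoflurane reads, so sex and animal cannot be told apart from the exposure.

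Of the 8 pore genes, 7 were higher in the sevoflurane library than in the control library, and CACNA1H was lower. The T-type gene CACNA1G differed most, at 2.17-fold, and was the only member at least 2-fold apart. The median log2 ratio of the 8 was 0.55. For all 8 the interval excluded equal expression, but such intervals are narrow at these read numbers. Over all tested genes, 28.4% were higher and 28.1% lower by the same rule, and the 2-fold limit was passed by 7.56% upward and by 5.47% downward. At 1.5-fold, 3 of the 8 (CACNA1D, CACNA1G and CACNA1I) were higher, beside 14.4% of all tested genes, and 0 were lower, beside 11.9%. CACNA1C at 1.49-fold lay just below that limit.

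**Figure D1:**
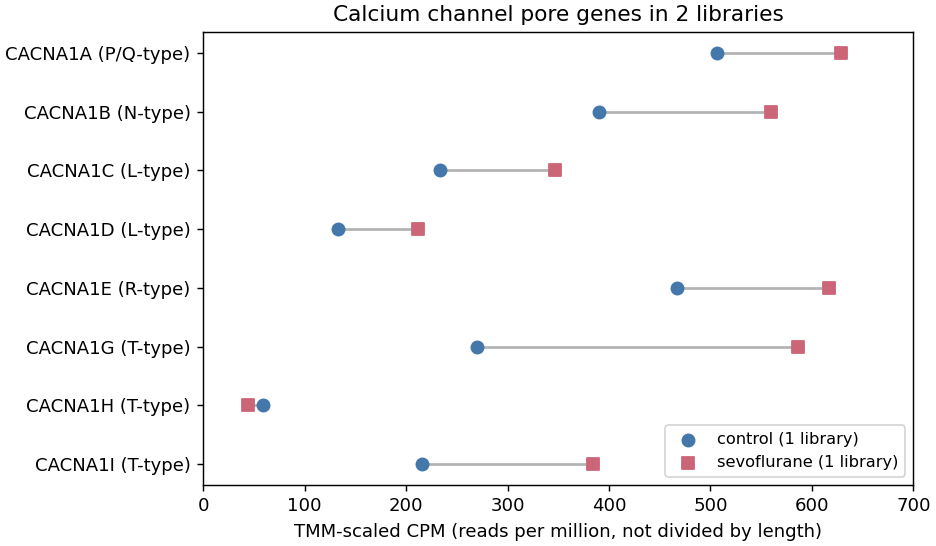
TMM-scaled CPM of each pore gene (x axis) in the control library (circles) and the sevoflurane library (squares), with 1 library per group and no error bars. For 7 genes the square lies to the right of the circle, and the longest line joins 270 and 586 CPM for CACNA1G, while the order of the marks is turned for CACNA1H.

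CACNA1A encodes the P/Q-type pore, the main calcium source for fast transmitter release at most central synapses. It had 8517 control and 6244 sevoflurane reads, or 507 and 629 CPM. Its level was thus 1.24-fold higher (log2 ratio 0.31, 95% interval 0.26 to 0.36), the smallest difference among the 7 higher genes. CACNA1B encodes the N-type pore, which acts beside the P/Q-type at presynaptic terminals. It had 6557 and 5558 reads, or 390 and 560 CPM. The sevoflurane library was higher by 1.43-fold, with a log2 ratio of 0.52 (0.47 to 0.57). CACNA1E encodes the R-type pore, found in dendrites and spines and at some terminals. It had 7848 and 6122 reads, or 467 and 616 CPM, with a log2 ratio of 0.40 (0.35 to 0.45). The P/Q-, N- and R-type genes therefore lay in the same direction within a range of 0.31 to 0.52.

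CACNA1C encodes the predominant L-type pore of the forebrain, a route by which calcium entry at the soma and dendrites reaches gene transcription. It had 3922 control and 3448 sevoflurane reads, or 233 and 347 CPM. The log2 ratio was 0.57 (0.51 to 0.64). CACNA1D encodes an L-type pore that opens at less depolarized potentials and contributes to pacemaking. It had 2225 and 2105 reads, or 132 and 212 CPM, and was 1.60-fold higher in the sevoflurane library (log2 ratio 0.68, 0.59 to 0.77). The L-type genes did not differ from each other beyond counting error, since the difference between their log2 ratios, CACNA1C minus CACNA1D, was -0.11 with an interval of -0.21 to 0.0025.

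The T-type genes spanned the whole range of the family. CACNA1G, known for burst firing of thalamic relay neurons and also used by cortical neurons, had 4542 control and 5818 sevoflurane reads, or 270 and 586 CPM. Thus the shallower library held more reads of this gene than the deeper one. The log2 ratio was 1.12 (1.06 to 1.17), and 6.62% of all tested genes had a higher ratio. CACNA1I, known from the thalamic reticular nucleus and present in cortex, had 3623 and 3818 reads, or 216 and 384 CPM. It was 1.78-fold higher (log2 ratio 0.83, 0.77 to 0.90), with 10.4% of the tested genes above it. CACNA1H, best known from sensory neurons, had the fewest reads of the 8, with 987 from control and 434 from sevoflurane cortex, or 58.7 and 43.7 CPM. It was 1.34-fold lower in the sevoflurane library (log2 ratio -0.43, -0.59 to -0.26), and 20.4% of the tested genes had a lower ratio. The remaining pore genes of the family, CACNA1S of skeletal muscle and CACNA1F of the retina, were sparse. CACNA1S had 72 and 41 reads and CACNA1F 104 and 61, with intervals that included equal expression (log2 ratios -0.05 and -0.01).

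**Figure D2:**
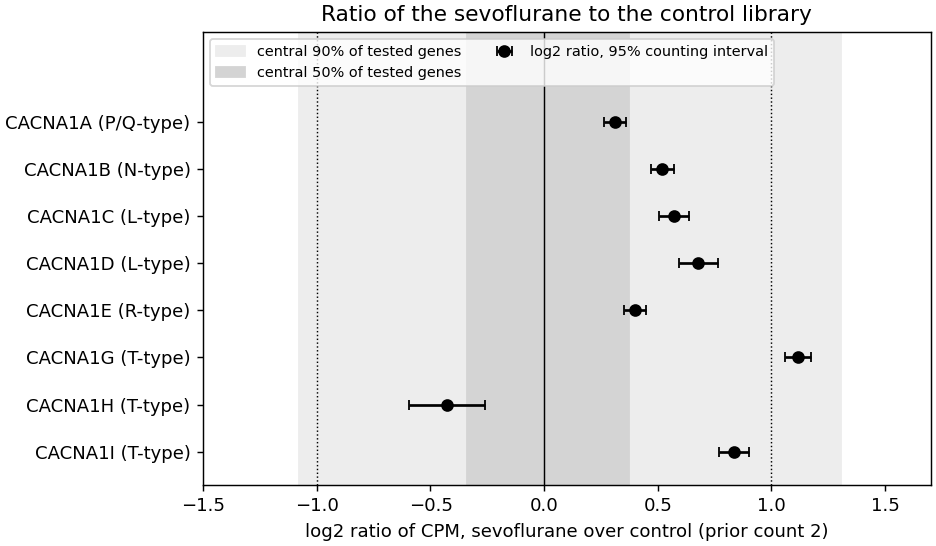
Log2 ratio of CPM, sevoflurane over control, for each pore gene (points) with its 95% counting interval (bars), over the central ranges of all 18050 tested genes (inner and outer grey bands, labelled in the plot) and with dotted lines at 2-fold. CACNA1A lies within the inner band, CACNA1G lies beyond the 2-fold line but within the outer band, and CACNA1H at -0.43 lies on the other side of 0.

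The make-up of the family was compared next, because a share of the reads of the 8 genes does not depend on the scaling between libraries. The 8 genes held 38221 control and 33547 sevoflurane reads, or 0.225% and 0.341% of all reads. Their sum was 2274 and 3378 CPM, a 1.49-fold difference. The T-type genes made up 23.9% of the family's reads in the control library (95% exact binomial interval 23.5 to 24.4) and 30.0% in the sevoflurane library (29.5 to 30.5). The P/Q-, N- and R-type genes made up 60.0% (59.5 to 60.5) and 53.4% (52.9 to 54.0). The L-type genes together made up 16.1% (15.7 to 16.5) of the control and 16.6% (16.2 to 17.0) of the sevoflurane reads, with overlapping intervals. Hence the balance between low- and high-voltage-activated pore reads differed between these 2 libraries beyond counting error.

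Within the T-type genes the shares went in opposite directions. CACNA1G held 11.9% (11.6 to 12.2) of the family's control reads and 17.3% (16.9 to 17.8) of its sevoflurane reads, and CACNA1I held 9.48% (9.19 to 9.78) and 11.4% (11.0 to 11.7). CACNA1H had the smaller share in the sevoflurane library, at 2.58% (2.43 to 2.75) for control and 1.29% (1.18 to 1.42) for sevoflurane. For each CACNA1H read the control library held 4.60 reads of CACNA1G, and the sevoflurane library 13.4. The share of CACNA1A was 22.3% (21.9 to 22.7) for control and 18.6% (18.2 to 19.0) for sevoflurane, and that of CACNA1C was 10.3% in both. Shares of different genes within a library also reflect transcript length. No transcript lengths were used here, so the genes are not ranked by level.

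**Figure D3:**
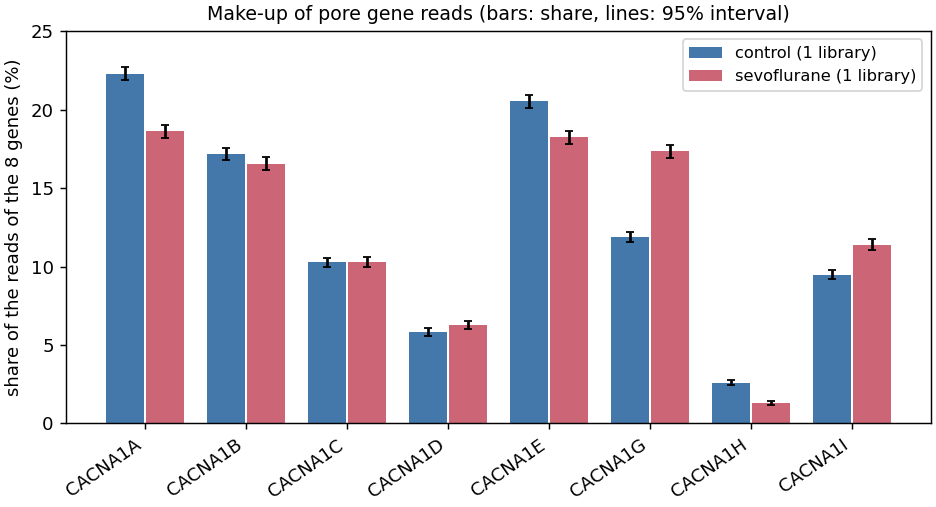
Share of each pore gene in the reads of the 8 genes (y axis, %) in the control and sevoflurane libraries (bars), with exact 95% binomial intervals (lines). The shares of CACNA1G (17.3% against 11.9%) and CACNA1I (11.4% against 9.48%) are larger in the sevoflurane library. Those of CACNA1A, CACNA1E and CACNA1H are smaller, and CACNA1C holds 10.3% in both.

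All 28 pairs of members were compared by the difference between their log2 ratios, from the reads of both genes in both libraries. For 26 pairs the 95% interval excluded 0, and for 23 a wider interval that leaves 0.1% outside did. The calls lost with the wider interval were CACNA1A with CACNA1E, CACNA1B with CACNA1D, and CACNA1D with CACNA1I. The pairs share genes and are therefore not independent, and intervals of counting error alone are narrow at these read numbers. Pairs of other genes were not counted in this way. Whether the pore genes differ among themselves more than other genes do was thus not tested. From highest to lowest ratio the order was CACNA1G, CACNA1I, CACNA1D, CACNA1C, CACNA1B, CACNA1E, CACNA1A and CACNA1H. Among neighbours in this order, CACNA1D and CACNA1C did not differ beyond counting error, and neither did CACNA1C and CACNA1B (difference CACNA1B minus CACNA1C -0.05, -0.14 to 0.03). The widest gap was between the T-type genes CACNA1G and CACNA1H, with a difference of 1.54 (1.37 to 1.71). CACNA1G also exceeded its nearest neighbour CACNA1I, by 0.28 (0.20 to 0.37). CACNA1A and CACNA1B, which serve the same presynaptic terminals, differed by -0.21 (-0.28 to -0.14).

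**Figure D4:**
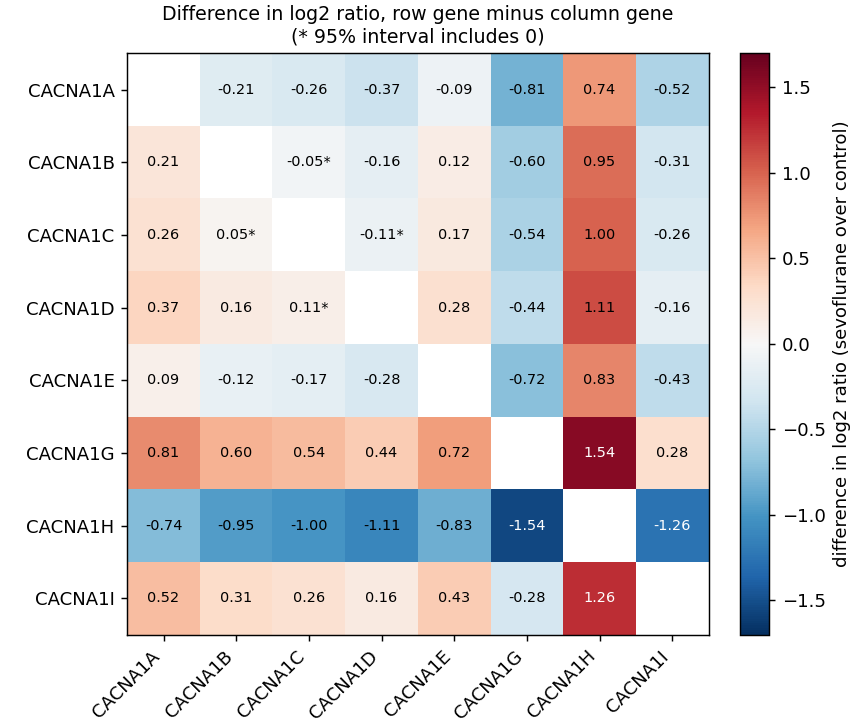
Difference in log2 ratio (sevoflurane over control) between each pair of pore genes, row gene minus column gene, as colour and number, with an asterisk where the 95% interval includes 0. The row of CACNA1G is positive throughout, the row of CACNA1H is negative throughout, and asterisks mark only CACNA1B with CACNA1C and CACNA1C with CACNA1D.

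The auxiliary subunits, which carry high-voltage-activated pores to the membrane and set their gating, differed less between the libraries, as a sum, than the pore genes. Of the 4 alpha2delta genes, 3 had at least 1 CPM. CACNA2D1, a binding site of gabapentin, had 5287 control and 3587 sevoflurane reads (log2 ratio 0.20, 0.14 to 0.26), and CACNA2D2 had 780 and 607 (0.40, 0.24 to 0.55). CACNA2D3 was lower in the sevoflurane library, with 375 and 184 reads (-0.27, -0.53 to -0.01). CACNA2D4, an alpha2delta gene of the retina, had 7 and 1 reads. The median of the 3 was 0.20, but over all 4 on the same scaling, a choice made after seeing the values, it was -0.03.

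Of the 4 beta genes, which bind the linker between the first and the second repeat of the pore, 2 were higher beyond counting error, 1 was lower and 1 was not distinguishable. CACNB3 had 2339 and 1832 reads (log2 ratio 0.41, 0.32 to 0.50) and CACNB1 had 2015 and 1352 (0.18, 0.08 to 0.28). CACNB4 had 3817 and 2276 reads, and its interval of -0.06 to 0.09 included equal expression. CACNB2 was the lowest, with 188 and 61 reads (-0.85, -1.31 to -0.44). The median of the beta list was 0.10. No alpha2delta or beta gene was at least 2-fold apart.

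Summed over the alpha2delta and beta genes, the level was 881 CPM for control and 997 CPM for sevoflurane, a 1.13-fold difference. Per read of these auxiliary genes the control library held 2.58 reads of the 8 pore genes and the sevoflurane library 3.39, a log2 difference of 0.39 (0.35 to 0.44). With the 5 high-voltage-activated pore genes alone, a choice made after seeing the values, the numbers were 1.96 and 2.37, a smaller difference of 0.27 (0.23 to 0.32). These reads are not divided by length.

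The gamma and TARP genes encode proteins named for the skeletal muscle gamma subunit, several of which serve AMPA receptors and not calcium channels. Of 7 tested, 2 were higher and 5 were not distinguishable from equal expression, with a median of 0.16. CACNG7 had 1069 control and 1022 sevoflurane reads (log2 ratio 0.69, 0.57 to 0.82) and CACNG4 had 856 and 577 (0.19, 0.03 to 0.34). CACNG2, which encodes stargazin, had 759 and 502 reads (0.16), CACNG3 had 2183 and 1221 (-0.08) and CACNG8 had 265 and 188 (0.26). CACNG5 (79 and 52 reads, log2 ratio 0.15) and CACNG6 (20 and 7, -0.65) were sparse, and CACNG1, the skeletal muscle gene, had 8 and 0 reads.

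RGK proteins are small GTP-binding proteins that inhibit high-voltage-activated channels, and STAC proteins are adaptors of L-type channels. Of 6 tested genes, RRAD and STAC2 were higher, STAC3 was lower and 3 were not distinguishable, with a median of -0.40. This median turned to 0.10 with a filter of 5 CPM, which leaves out the sparsest genes. RRAD had 40 and 41 reads (log2 ratio 0.76, 0.13 to 1.46) and STAC2 had 386 and 383 (0.74, 0.54 to 0.96), whereas STAC3 had 216 and 84 (-0.60, -0.99 to -0.23). Active zone partners anchor P/Q- and N-type channels near vesicles. Of 12, 5 were higher, 2 were lower and 5 were not distinguishable, with a median of 0.05. RIMS2 was the highest (98 and 93 reads, 0.67, 0.26 to 1.11) and SYT1, the calcium sensor of release, was the lowest (25532 and 11445 reads, -0.40, -0.43 to -0.37). UNC13A had a log2 ratio of 0.03 and SNAP25 of 0.02.

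**Figure D5:**
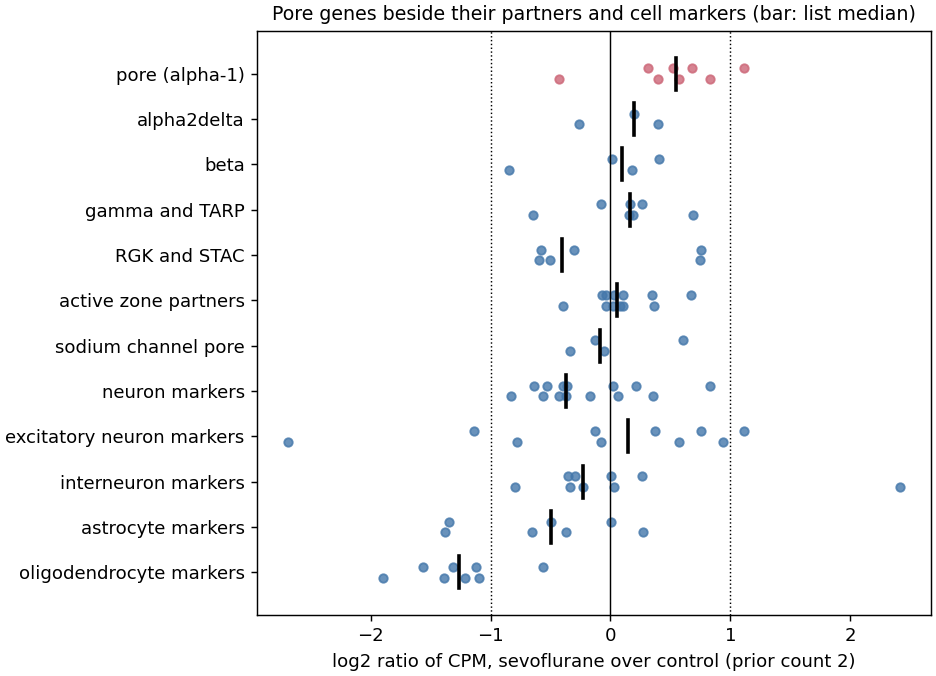
Log2 ratio of CPM, sevoflurane over control, of each tested gene (points) in the pore family, its partners and lists of cell type markers, with the list median (black bar) and dotted lines at 2-fold. The pore genes have a median of 0.55, and the alpha2delta, beta, gamma and TARP, and active zone lists have medians of 0.05 to 0.20. The RGK and STAC list has a median of -0.40, and the oligodendrocyte markers have the lowest median at -1.26.

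Markers of the cell types in the tissue also differed between the libraries, and in bulk tissue fewer cells of a type and less RNA per cell cannot be told apart. The 14 neuron markers had a median log2 ratio of -0.37 and a summed level of 10908 CPM for control and 8832 CPM for sevoflurane, and 9 were lower and 4 higher, from UCHL1 (-0.83) to RBFOX3 (0.83). The 8 oligodendrocyte markers were all lower, from MOG (-1.90) to MBP (-0.56), and summed to 4209 and 2049 CPM. The 7 astrocyte markers summed to 6147 and 4264 CPM, with a median of -0.49, and 5 were lower, among them AQP4 (-1.38) and GFAP (-1.35). None of these markers was at 0 in either library. Relative to the median of the neuron markers, the median of the pore genes was 0.91 in place of 0.55, and CACNA1D (1.05) and CACNA1I (1.20) passed 2-fold beside CACNA1G (1.48). On that scale CACNA1H was not distinguishable from equal expression (-0.06, -0.23 to 0.11).

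Markers of cortical excitatory neurons were split, with 5 of 10 higher and 5 lower and a median of 0.15. CUX2 (1.12) and RORB (0.75), genes of upper and middle layers, were higher in the sevoflurane library. FEZF2 (-1.14) and BCL11B (-0.78), genes of deep-layer projection neurons, were lower, and NEUROD6 was the lowest (1315 and 119 reads, -2.69). TBR1, also a deep-layer gene, was higher (0.57, 0.48 to 0.65), so deep-layer genes went in both directions. Interneuron markers had a median of -0.23, with 5 of 9 lower, LAMP5 the lowest (-0.80), and PVALB, of fast-spiking interneurons, higher (68 and 221 reads, 2.42). Their summed level was 529 CPM for control and 464 CPM for sevoflurane. The part of these differences in cell type and layer markers in the ratios of the pore genes was not tested.

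Sodium channel pore genes, which like the calcium channel genes encode large pore proteins of 4 repeats, are given for comparison without a test. SCN1A was higher (2893 and 2608 reads, log2 ratio 0.61, 0.53 to 0.69), SCN2A (403 and 188 reads, -0.34) and SCN3A (4069 and 2204, -0.13) were lower, and SCN8A was not distinguishable (2160 and 1233, -0.05). The median of the 4 was -0.09, beside 0.55 for the calcium channel pore genes.

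The treatment of reads matching several genes is not given in the sources used here, so reads could be split among the related pore genes. By gene order in the RefSeq table of the macaque assembly MMU8v2.0, 22 annotated genes overlap a member, and 2 of them are in the count table. They are DCP1B, which overlaps CACNA1C (371 and 229 reads, log2 ratio 0.06), and TPSG1, which overlaps CACNA1H (0 reads in both). The protein-coding neighbours of CACNA1G are ABCC3, a transporter gene with 329 and 705 reads (1.85, 1.67 to 2.05), and SPATA20, with 207 and 145 reads (0.24, -0.07 to 0.56). Tested neighbours of other members went in both directions. EHMT1 beside CACNA1B (0.60), IER5 beside CACNA1E (0.55) and DCP1A beside CACNA1D (0.25) were higher. CHDH beside CACNA1D (-0.60) and RPS19BP1 beside CACNA1I (-0.40) were lower, and IER2 beside CACNA1A (0.01) was not distinguishable. A link between members and their neighbours was not tested. Coordinates are not given, because the build behind the counts is not named.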

How the data were processed

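Per gene, raw read counts were deposited by the authors as whole numbers in a table with 1 column per library, and the columns were matched to groups by the sample titles. The submitters' processing notes name HISAT2 2.0.4, and the counting tool, genome build and annotation are not given in the sources used here.

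Counts were scaled with TMM in edgeR 4.0.16 (R 4.3.3), on genes reaching 1 CPM in 1 or both libraries (factors 0.991 for control and 1.01 for sevoflurane). Intervals were computed with scipy 1.17.1 under Python 3.11.15 (numpy 2.4.6, pandas 2.3.3), and plots with matplotlib 3.10.9. Calls of a 2-fold difference required a log2 ratio of 1 or more in either direction and a 95% interval without equal expression. Intervals of differences between pairs used a normal approximation of the log odds ratio. Depth set the precision, and 3 reads, the floor, came to 0.179 CPM for control and 0.302 CPM for sevoflurane. The intervals cover counting error only and treat each read as independent. No molecular identifiers are named, so the intervals would be too narrow where reads are copies of the same molecule. The quasi-likelihood test of edgeR could not be fitted to 1 library per group.

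The members and lists were chosen with earlier results of these data known. Named were all members, all tested auxiliary subunits and, of other lists, genes 2-fold apart and the extremes; UNC13A, SNAP25, tissue, layer and interneuron genes, DRD1, ATP2B1, ATP2B3, further sodium channel and neighbouring genes were added after their values were seen. The procedure was run on simulated counts drawn with counting error only, so that run says nothing about variation between animals. Levels per coding length were not computed, since no lengths were used here. Alternatives included DESeq2 1.42.0 size factors. Some marker genes are not reported here by name.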

Additional observations from a re-analysis of the deposited data

How the results depend on the processing

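Scaling was repeated by upper quartile, by library totals, by DESeq2 size factors and by centring on the neuron markers. The prior count was lowered to 0.5, the filter set at 5 CPM or 1 read, the deeper control library thinned to equal depth, the fold threshold set at 4 or 1.5 and the interval widened to leave 0.1% outside. Most scaling and filter alternatives move all 8 members by nearly the same amount, so values of single genes are not separate checks. Of 64 values of single pore genes under the 8 alternatives that can move a log2 ratio, 56 stayed within their 95% interval. Direction changed for 0, and the 8 that left their interval came from centring on the neuron markers. That centring, which adds 0.37 to every log2 ratio, gave a median of 0.91 for the pore genes, with 3 members at least 2-fold higher and 0 lower beyond counting error. It gave 2624 higher and 504 lower genes overall. The threshold of 1.5-fold gave 3 higher members and 2604 higher and 2141 lower genes, and 4-fold gave 0 higher members and 352 and 221 genes. The median of the alpha2delta list turned to -0.05 with the filter of 1 read, which also changes the scaling. The filter of 5 CPM, which tests fewer genes, gave 606 and 474, in place of 1364 and 988. No paired analysis was possible because only 1 library stands for each group, and for the same reason no library could be left out. Levels per coding length were not run, since no lengths were used here.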

Other observations

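Genes that act on calcium once it has entered the cell were mixed in direction. Of 11 tested calcium sensors of the channel and their enzymes, 4 were higher and 7 lower beyond counting error. PPP3CA, a catalytic subunit of calcineurin, was the highest (8261 and 6729 reads, log2 ratio 0.46, 95% interval 0.42 to 0.51), and CALM2, a calmodulin gene, was the lowest (10899 and 4215 reads, -0.61, -0.66 to -0.56). Of 5 genes of calcium-activated potassium channels, which repolarize the membrane after calcium entry, 3 were higher and 2 lower. KCNN3 was the highest (384 and 279 reads, 0.30, 0.07 to 0.52) and KCNMB4 the lowest (1964 and 637 reads, -0.86).

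Of 15 genes of calcium stores and clearance, 5 were higher, 7 lower and 3 not distinguishable, with a median of -0.05. Of the 4 plasma membrane calcium pump genes, 2 were higher, 1 was lower and 1 was not distinguishable. ATP2B2, known for rapid calcium extrusion in neurons, had 5205 control and 6210 sevoflurane reads (log2 ratio 1.01, 0.96 to 1.07), whereas ATP2B4 had 7612 and 2196 (-1.03, -1.10 to -0.97). ATP2B3 had 2473 and 1900 (0.38, 0.29 to 0.47), and the interval of ATP2B1 (15727 and 9260) of -0.04 to 0.03 included equal expression. ATP2B2 and ATP2B4 were at least 2-fold apart, as CACNA1G was among the pore genes. Of the cytosolic calcium buffers, CALB1 (1020 and 776 reads, 0.36, 0.23 to 0.50) and PVALB were higher. Of 3 tested genes of the sodium leak channel complex, UNC79 was the lowest (-0.09) and UNC80 the highest (-0.06).

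Among the remaining marker lists, microglia had a median of 0.28 over 7 genes, with C1QB at least 2-fold higher (175 and 266 reads, 1.35) and P2RY12 the lowest (-0.52). Endothelial and mural markers had a median of 0.13 over 7 genes, from FLT1 (-0.37) to ACTA2 (197 and 277 reads, 1.24), and the 5 oligodendrocyte precursor markers were all lower, with a median of -0.33, from OLIG1 (-0.47) to CSPG4 (-0.22). Of the markers of cerebellum, thalamus and striatum, 5 of 8 were tested, with a median of -0.46. CBLN1 was the lowest (325 and 37 reads, -2.33) and PPP1R1B, a gene of striatal and cortical neurons, the highest (644 and 899 reads, 1.24).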
